A study of Homo sapiens with 12 samples.

Results

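The regulators of G protein signaling (RGS) on the array comprised 17 genes read by 38 probe sets, and 9 of them are described here: RGS2, RGS3, RGS4, RGS10, RGS12, RGS14, RGS16, RGS19 and RGS20. These 9 genes were taken with every probe set whose platform annotation names that gene alone, which gave 22 probe sets of the 22215 tested. The 9 were chosen by their log2 signals on these same arrays, with the results in view, and which comparison guided the choice is not stated. Their differences between groups are therefore a description of these arrays, and a call on a member, including its adjusted p, is not independent evidence about the family.

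RKO is a human colorectal carcinoma cell line, and RNA from it was measured on 12 Affymetrix human expression arrays in 4 groups of 3. The groups were cells given both drugs together (TQ+5-FU), cells given 20 µM thymoquinone (TQ), a quinone from black cumin seed, cells given 10 µg/mL (76.8 µM) 5-fluorouracil (5-FU), a pyrimidine analogue that blocks thymidylate synthesis, and control cells, all harvested after 24 h. The labels describe the control cells as untreated, while the methods state that they received the DMSO in which the drugs were dissolved, so an effect of the solvent cannot be told apart from those labels. All arrays come from 1 cell line, and the methods speak of independent biological replicates for the study in general, while the labels do not say how the 3 arrays of a group arose. Each p-value reflects the spread from array to array.

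RGS proteins shorten signals from G protein-coupled receptors. A receptor loads GTP onto a G alpha subunit, which then acts on adenylyl cyclase or phospholipase C, and the RGS domain speeds the hydrolysis of that GTP and so switches the subunit off. Many RGS genes are themselves induced by the signals they restrain, and their mRNAs are often short-lived. In the R4 subfamily, RGS2 acts mainly on Gq, while RGS3, RGS4 and RGS16 act on both Gi and Gq. In the R12 subfamily, RGS10 is a short protein that acts on Gi, and RGS12 and RGS14 are long proteins that also bind Ras-family GTPases and hold a GoLoco motif that binds inactive Gi. RGS19 and RGS20 belong to the RZ subfamily, as does RGS17, and RGS20 acts strongly on Gz.

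RefSeq's GRCh38.p14 annotation places RGS2, RGS4 and RGS16 on chromosome 1, RGS12 on chromosome 4, RGS14 on chromosome 5, RGS3 on chromosome 9, RGS10 on chromosome 10 and RGS19 on chromosome 20. The sequences just upstream of the start sites of RGS2, RGS16 and RGS14 are shown because these 3 genes moved in different ways across the groups and each has a single annotated start. Each line holds the 250 bases before the start in RefSeq's GRCh38.p14 annotation, at chr1:192808789-192809038 on the plus strand for RGS2, at chr1:182604390-182604639 on the minus strand for RGS16 and at chr5:177357674-177357923 on the plus strand for RGS14. Capitals mark matches to any of the motifs searched on both strands.
RGS2: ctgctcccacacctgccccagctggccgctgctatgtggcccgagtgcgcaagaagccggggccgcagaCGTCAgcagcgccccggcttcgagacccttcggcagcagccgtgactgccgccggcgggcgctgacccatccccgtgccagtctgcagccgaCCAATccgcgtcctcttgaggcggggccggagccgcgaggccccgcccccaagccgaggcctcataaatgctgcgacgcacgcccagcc
RGS16: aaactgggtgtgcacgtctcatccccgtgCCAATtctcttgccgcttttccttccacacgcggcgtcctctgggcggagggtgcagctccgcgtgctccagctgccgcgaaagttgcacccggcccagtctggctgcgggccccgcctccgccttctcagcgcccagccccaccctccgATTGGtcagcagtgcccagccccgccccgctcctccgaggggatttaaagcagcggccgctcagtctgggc
RGS14: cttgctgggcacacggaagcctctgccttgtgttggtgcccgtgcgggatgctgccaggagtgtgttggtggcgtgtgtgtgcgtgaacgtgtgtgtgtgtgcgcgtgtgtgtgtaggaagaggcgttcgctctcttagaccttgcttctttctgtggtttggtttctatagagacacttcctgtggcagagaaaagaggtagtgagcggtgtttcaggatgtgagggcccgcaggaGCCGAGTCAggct
The motifs were the cAMP response element TGACGTCA and its core TGACG, the AP-1 site TGANTCA, the heat shock element GAANNTTC, the antioxidant response element TGACNNNGC, the NF-κB site GGGNNTTCC, the p53 half-site, the CCAAT box and the TATA box TATAAA. The window of RGS2 held 1 TGACG core on the opposite strand, at position -181 from the start, a motif found in 21.22% of 35116 such windows of all genes, and 1 CCAAT box, found in 32.01%. RGS16 held 2 CCAAT boxes, 1 on each strand, and no other match. In RGS14, a match to TGACNNNGC on the opposite strand lay at position -13, and 10.91% of all windows held one. None of the 3 windows matched the full cAMP response element, AP-1, the heat shock element, the NF-κB site, the p53 half-site or TATAAA. These matches describe letters only, and binding was not measured.

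The deposited values are log2 signals with array medians between 6.33 and 6.55. The arrays of 5-FU replicate 3 and, by less, TQ+5-FU replicate 2 stood apart from their replicates. 5-FU replicate 3 correlated with its group at a mean of 0.911 and was nearest to TQ+5-FU replicate 2. The other 11 arrays were nearest to an array of their own group. TQ+5-FU replicate 2 correlated with its group at a mean of 0.978, against 0.984 and 0.990 for TQ+5-FU replicates 1 and 3. The differences of the main probe sets and the counts of calls are therefore given over all 12 arrays. They are given again over the 10 arrays without 5-FU replicate 3 and TQ+5-FU replicate 2. Of the epithelial markers, KRT18 and EPCAM were well above the median signal of an array, and KRT19 and CDH1 were low. Of 8 leukocyte markers on the array, 1 exceeded the array median in most arrays and 2 did so in 5-FU replicate 3, where the list stood 0.48 above its control mean (median log2 difference), against -0.01 and -0.11 in 5-FU replicates 1 and 2. The epithelial list itself stood at 0.47 in 5-FU replicate 3, against -0.0072 and 0.22 in 5-FU replicates 1 and 2, and at 0.10, 0.37 and 0.41 in TQ+5-FU replicates 1 to 3. Over all probe sets, the median difference of 5-FU replicate 3 from the mean of its replicates was 0.40. Its own array median was nevertheless the lowest of the 12, at 6.33 against 6.51 and 6.52 in 5-FU replicates 1 and 2. The array was thus not brighter throughout. The 6 fibroblast markers stood at 0.63 in 5-FU replicate 3, against -0.13 and -0.06 in the other 5-FU arrays. In TQ+5-FU replicate 2, the leukocyte and fibroblast lists stood at 0.16 and 0.16, while TQ+5-FU replicates 1 and 3 gave -0.18 and 0.03 for leukocytes and -0.10 and 0.01 for fibroblasts. The 5 endothelial markers stood at 0.38 in TQ+5-FU replicate 2 and 0.37 in 5-FU replicate 3, and between -0.14 and 0.01 in the other arrays of those groups. The part of these shifts in the results was not tested.

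The RGS genes fell into different patterns rather than moving as a family. RGS2 and RGS20 had the largest differences from control among the members in both groups that received TQ. RGS3 and RGS14 had their highest means with 5-FU and overlapped control with TQ alone. RGS16 had its highest mean with both drugs. The probe sets of RGS4 disagreed with 5-FU, and RGS10, RGS12 and RGS19 had smaller differences, none of them called over 12 arrays. A difference is given as a log2 difference from limma, with its standard error, and a probe set is called higher or lower where its p, adjusted by Benjamini-Hochberg over all 22215 probe sets, is under 0.05. Over 12 arrays, 3 of the 22 probe sets were called with TQ+5-FU against control, 0 with TQ and 2 with 5-FU, all of them higher, where 2.58%, 0.252% and 6.68% of all probe sets were called in either direction and 1.48% (TQ+5-FU) and 3.54% (5-FU) were called higher. At an unadjusted p under 0.05, limma counted 7 higher and 0 lower with TQ+5-FU, 3 and 0 with TQ, and 7 and 1 with 5-FU. The share of all probe sets at an unadjusted p was not counted, here or below. Such counts therefore cannot be set against a background. With TQ, the methods' Tukey's HSD called 0 of the 22, beside 2.93% of all probe sets. In bulk RNA, more expressing cells and more RNA per cell cannot be told apart.

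**Figure D1:**
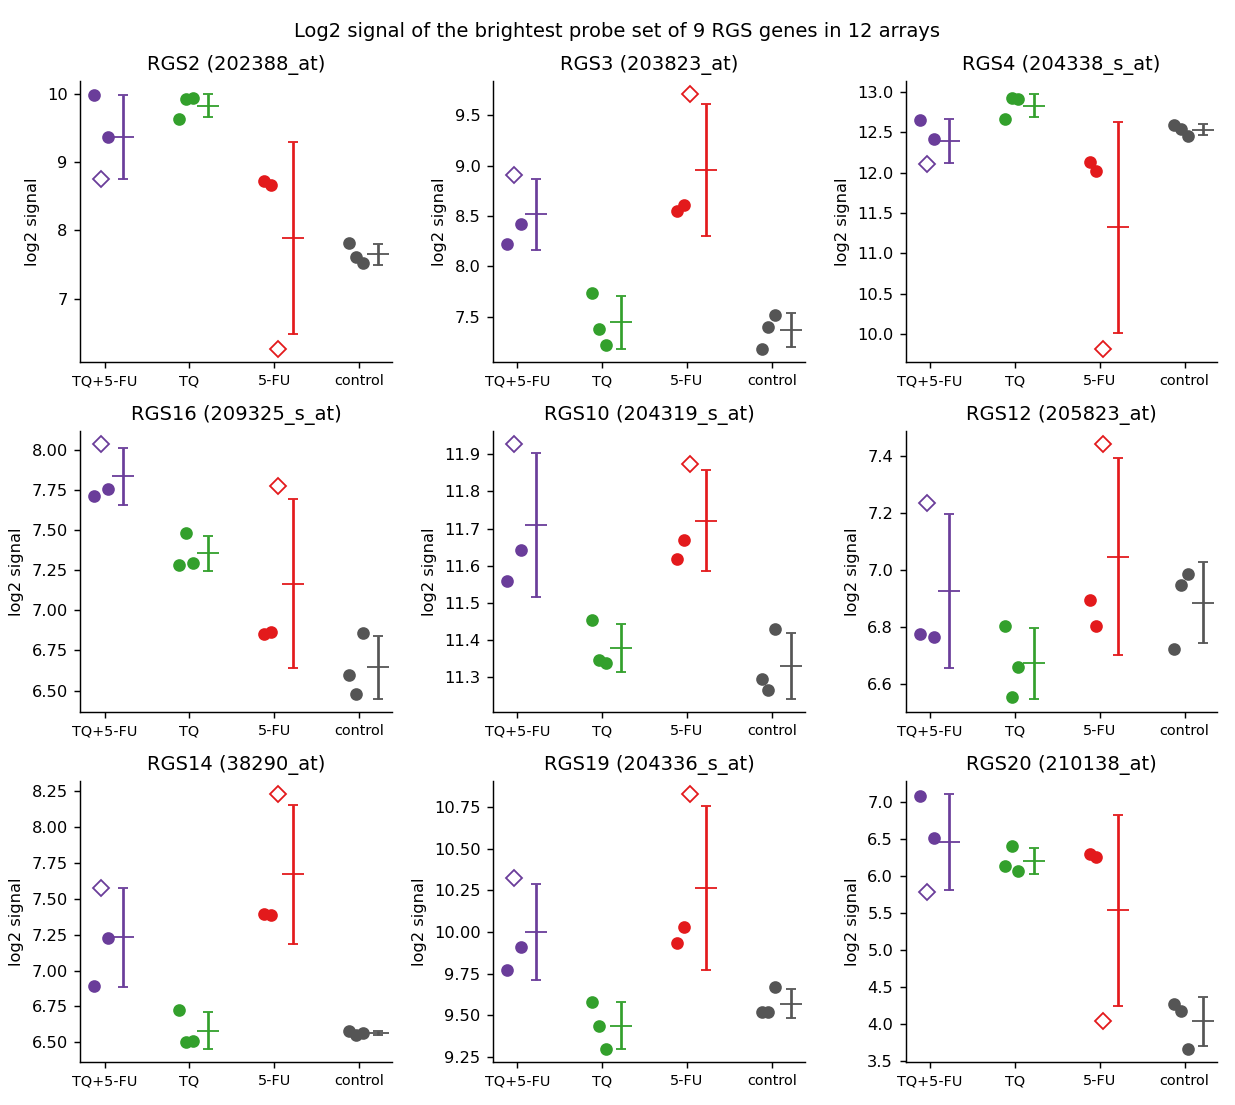
Log2 signal (y axis) of the brightest probe set of each of the 9 RGS genes in the 4 groups (x axis). Points are arrays, open diamonds are TQ+5-FU replicate 2 and 5-FU replicate 3, and bars are the mean and SD of 3 arrays. All TQ arrays of RGS2 (9.63 to 9.94) and RGS20 (6.07 to 6.41) lie above all control arrays, and the open diamond of 5-FU lies below its replicates for RGS2, RGS4 and RGS20 and above them for the other genes.

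RGS2, the regulator of Gq, was read by 1 probe set (202388_at). Its log2 signals were 9.99, 8.76 and 9.37 in TQ+5-FU replicates 1 to 3, 9.63, 9.92 and 9.94 with TQ, 8.73, 8.67 and 6.27 with 5-FU, and 7.82, 7.61 and 7.52 in control cells. All arrays of TQ and of TQ+5-FU were above all control arrays, and the 5-FU arrays lay on both sides of them, with replicate 3 the lowest of the 12. Mean signals were 9.37 ± 0.61 with TQ+5-FU, 9.83 ± 0.17 with TQ, 7.89 ± 1.40 with 5-FU and 7.65 ± 0.15 in control cells (SD, n = 3 each). TQ against control gave a log2 difference of 2.18 (standard error 0.56), a 4.52-fold higher signal, with an adjusted p of 0.18 in limma over 12 arrays, where all groups share a single estimate of spread. Neither array left out of the 10-array fit belongs to TQ or control, and without the pair the same 2.18 had an adjusted p of 3.3e-05. TQ+5-FU against control gave 1.72 (standard error 0.56, adjusted p = 0.19 in limma) over 12 arrays, not called, and 2.03 (adjusted p = 3.0e-05) over 10. With 5-FU, the log2 difference from control was 0.24 over 12 arrays and 1.05 (adjusted p = 8.9e-04 in limma) over 10, a value that thus rests on which arrays are kept.

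RGS20, the regulator of Gz, was read by 1 probe set (210138_at) and had log2 signals of 7.09, 5.79 and 6.52 with TQ+5-FU, 6.13, 6.41 and 6.07 with TQ, 6.31, 6.27 and 4.05 with 5-FU, and 4.28, 4.18 and 3.66 in control cells. Both groups given TQ lay above all controls, as did 5-FU replicates 1 and 2, whereas 5-FU replicate 3 was within the controls. RGS20 rose with TQ+5-FU by 2.42 on the log2 scale (standard error 0.54, adjusted p = 0.046 in limma), a 5.37-fold higher signal. Its control mean of 4.04 lay well below the array medians of 6.33 to 6.55, so its differences from control start from a low signal. Its differences with TQ, 2.17 (standard error 0.54, adjusted p = 0.17), and with 5-FU, 1.5 (standard error 0.54, adjusted p = 0.16), did not pass over 12 arrays. Over 10 arrays all 3 passed, at 2.76, 2.17 and 2.25 for TQ+5-FU, TQ and 5-FU. With both drugs RGS20 was then 0.60 above TQ alone (adjusted p = 0.081 in limma) and 0.52 above 5-FU alone (adjusted p = 0.22), and neither difference passed. The call with TQ+5-FU held in 8 of 22 alternatives. It was lost when any single control, TQ or TQ+5-FU array was left out, with adjusted p values up to 0.18 over the alternatives tried. It was also lost by the methods' tests, with a replicate block, after quantile normalization and with another variance prior.

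RGS16, which acts on Gi and Gq, was read by 2 probe sets. For the brighter (209325_s_at), the log2 signals were 7.71, 8.04 and 7.76 with TQ+5-FU, 7.29, 7.48 and 7.30 with TQ, 6.86, 6.87 and 7.77 with 5-FU, and 6.60, 6.48 and 6.86 in control cells. The TQ+5-FU arrays lay above all TQ and all control arrays, the TQ arrays lay above all controls, and of the 5-FU arrays only replicate 3 stood clearly above them. RGS16 rose with TQ+5-FU by 1.19 (standard error 0.23, adjusted p = 0.024 in limma), and the other probe set (209324_s_at) by 1.17 (adjusted p = 0.034). Over 10 arrays these were 1.09 and 1.06. TQ alone gave 0.71 and 0.45, both called over 10 arrays and not over 12, and 5-FU alone gave 0.52 and 0.25 over 12 arrays and 0.22 and -0.08 over 10, none of them called. The calls with TQ+5-FU held in 11 (209325_s_at) and 8 (209324_s_at) of 22 alternatives. Without TQ+5-FU replicate 1, 2 or 3, or any control array, neither probe set passed with TQ+5-FU (adjusted p up to 0.13 and 0.17 over the alternatives). Neither passed by the methods' tests, after quantile normalization or after median centring.

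RGS3, also of the R4 subfamily, showed the other pattern. Its brighter probe set (203823_at) had log2 signals of 8.22, 8.91 and 8.42 with TQ+5-FU, 7.74, 7.38 and 7.22 with TQ, 8.55, 8.61 and 9.71 with 5-FU, and 7.18, 7.40 and 7.51 in control cells. All arrays given 5-FU, alone or with TQ, lay above all others. RGS3 rose with 5-FU by 1.59 (standard error 0.30, adjusted p = 0.010 in limma), a 3.02-fold higher signal, and by 1.22 over 10 arrays. The call held in 19 of 22 alternatives and was lost without control replicate 1, when only the 5-FU and control arrays were fitted, and by the methods' pairwise test (adjusted p up to 0.24). With TQ+5-FU, the difference was 1.15 (standard error 0.30, adjusted p = 0.086), and 0.96 over 10 arrays (adjusted p = 0.0013). TQ alone gave 0.08, with a 95% confidence interval of -0.59 to 0.75. The second probe set (220300_at), which lies among the 30% of probe sets with the lowest signal, ranged from 3.45 to 4.42 and was not called in any comparison.

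RGS14, the long R12 member that binds inactive Gi, followed RGS3. Probe set 38290_at had log2 signals of 6.89, 7.58 and 7.22 with TQ+5-FU, 6.73, 6.50 and 6.51 with TQ, 7.39, 7.39 and 8.23 with 5-FU, and 6.58, 6.55 and 6.57 in control cells. The groups with 5-FU and with TQ+5-FU each lay above all control and all TQ arrays, and TQ overlapped control. RGS14 rose with 5-FU by 1.10 (standard error 0.23, adjusted p = 0.018 in limma), and by 0.83 over 10 arrays. The call held in 16 of 22 alternatives and was lost without any 1 of the control arrays, by the methods' tests and when only the 5-FU and control arrays were fitted (adjusted p up to 0.25 over all alternatives). TQ+5-FU gave 0.67 (adjusted p = 0.24) over 12 arrays and 0.49 (adjusted p = 0.0089) over 10. The 2 other probe sets of RGS14, 204280_at and the dim 211021_s_at, had differences with 5-FU of 0.59 and 0.09 over 12 arrays. Over 10 arrays these were 0.31 and -0.17, and neither was called in either fit. With TQ+5-FU over 12 arrays they gave 0.23 and -0.23, neither called, and 211021_s_at lay below all controls there.

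**Figure D2:**
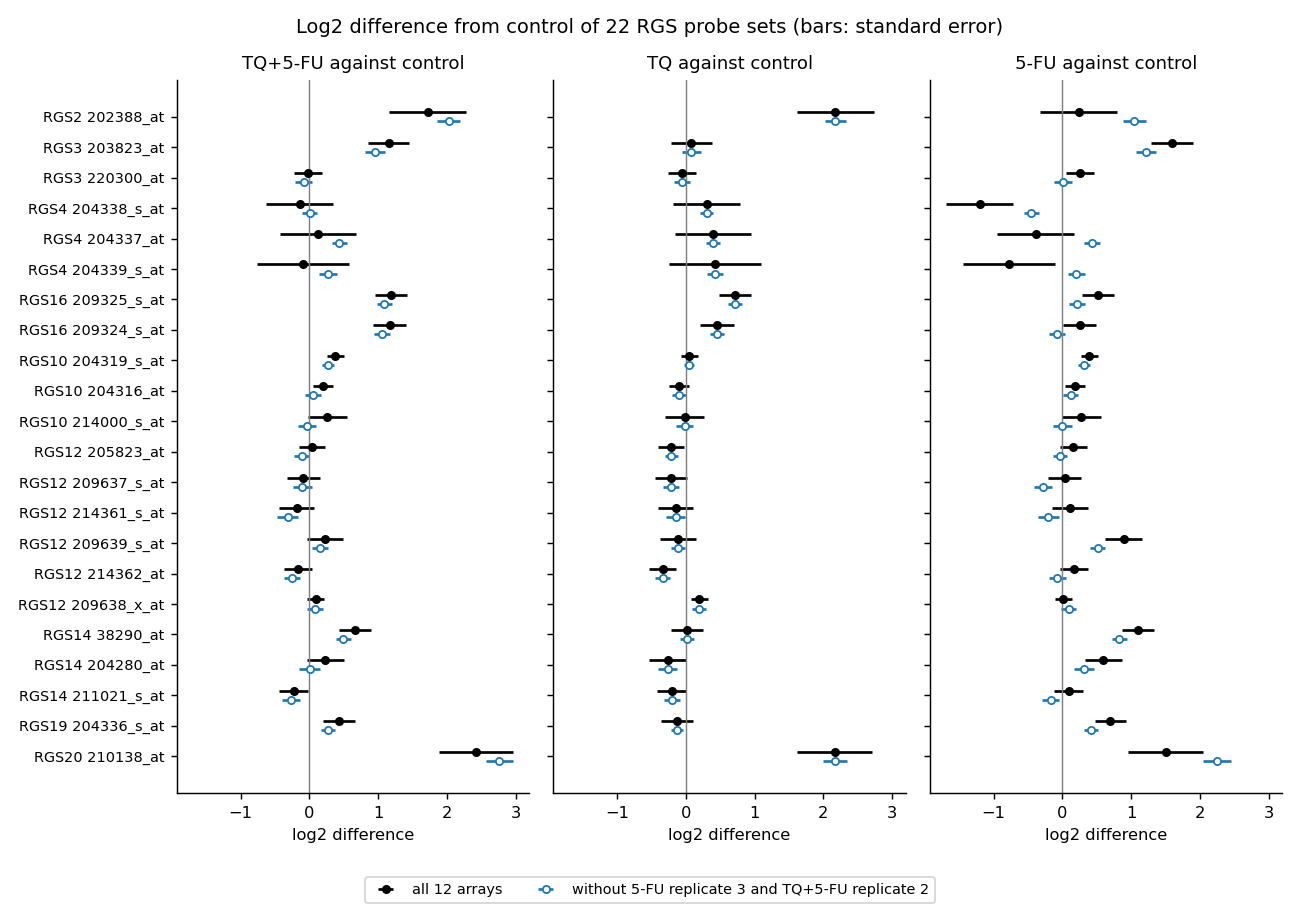
Log2 difference from control (x axis) of all 22 RGS probe sets (y axis) with TQ+5-FU, TQ and 5-FU, over 12 arrays (filled) and over 10 arrays (open); bars are standard errors. RGS2 and RGS20 lie farthest to the right with TQ (2.18 and 2.17), RGS3 lies at 1.59 with 5-FU over 12 arrays, and the 3 probe sets of RGS4 lie on different sides of 0 with 5-FU over 10 arrays.

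RGS4, a regulator of Gi and Gq, was read by 3 probe sets. The brightest (204338_s_at) had log2 signals of 12.65, 12.10 and 12.42 with TQ+5-FU, 12.66, 12.92 and 12.91 with TQ, 12.13, 12.02 and 9.82 with 5-FU, and 12.59, 12.54 and 12.46 in control cells. All 5-FU arrays were below and all TQ arrays above the controls, by small amounts except in 5-FU replicate 3. With 5-FU its log2 difference was -1.21 (standard error 0.49, adjusted p = 0.22) over 12 arrays and -0.45 (adjusted p = 0.0094 in limma) over 10. The other 2 probe sets, 204337_at and 204339_s_at, gave -0.39 and -0.78 over 12 arrays and turned to 0.43 (adjusted p = 0.016) and 0.20 (adjusted p = 0.30) over 10. The gene's response to 5-FU therefore has no settled direction, since 204337_at and 204338_s_at were called in opposite directions over the same 10 arrays. With TQ, the 3 probe sets gave 0.30, 0.40 and 0.42, all higher in each TQ array than in each control, and were called over 10 arrays and not over 12. With both drugs, 204337_at gave 0.13 over 12 arrays and 0.44 (adjusted p = 0.019 in limma) over 10, and the brightest gave -0.14 and 0.0024.

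RGS19, of the RZ subfamily, and RGS10, the short R12 member, showed smaller differences in the direction of RGS3. RGS19 (204336_s_at) ranged from 9.93 to 10.83 with 5-FU and from 9.52 to 9.67 in control cells without overlap, a log2 difference of 0.70 (standard error 0.23, adjusted p = 0.12), and 0.41 over 10 arrays (adjusted p = 0.011 in limma). RGS10 (204319_s_at) ranged from 11.62 to 11.88 with 5-FU and from 11.26 to 11.43 in control cells, a difference of 0.39 (adjusted p = 0.10), and 0.31 (adjusted p = 0.018) over 10 arrays. Its 2 other probe sets gave 0.18 and 0.27 over 12 arrays and 0.12 and -0.0032 over 10, and were not called. RGS12, the longest member, was read by 6 probe sets, of which 209639_s_at had the largest difference with 5-FU, 0.89 (adjusted p = 0.083), and 0.51 (adjusted p = 0.0063) over 10 arrays. The other 5 lay between 0.01 and 0.17 over 12 arrays with 5-FU and between -0.28 and 0.09 over 10, 4 of them below 0 there and none called, and the brightest (205823_at) overlapped control in every treated group. With TQ, the dim probe set 214362_at of RGS12 lay below all controls, with a log2 difference of -0.34, the only member called lower with TQ over 10 arrays (adjusted p = 0.036), and it was not called over 12.

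How far these differences rest on the pair of arrays that stand apart can be read for each gene. In 5-FU replicate 3, RGS2, RGS20 and the 3 probe sets of RGS4 lay below the mean of 5-FU replicates 1 and 2, with differences of -2.43, -2.24, and -2.26 to -2.95 on the log2 scale. RGS3 (203823_at) lay 1.13 above it, RGS16 (209325_s_at) 0.91, RGS19 0.85 and RGS14 (38290_at) 0.84. In all, 16 of the 22 probe sets were higher and 6 lower in that array than in its replicates, beside a median shift of 0.40 over all probe sets tested. TQ+5-FU replicate 2 differed from its replicates in the same direction and by less for RGS2, RGS20 and RGS3, with -0.92 for RGS2, -1.01 for RGS20 and 0.58 for RGS3. The array that lowers the 5-FU mean of RGS2, RGS4 and RGS20 thus raises that of RGS3, RGS14, RGS16 and RGS19.

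**Figure D3:**
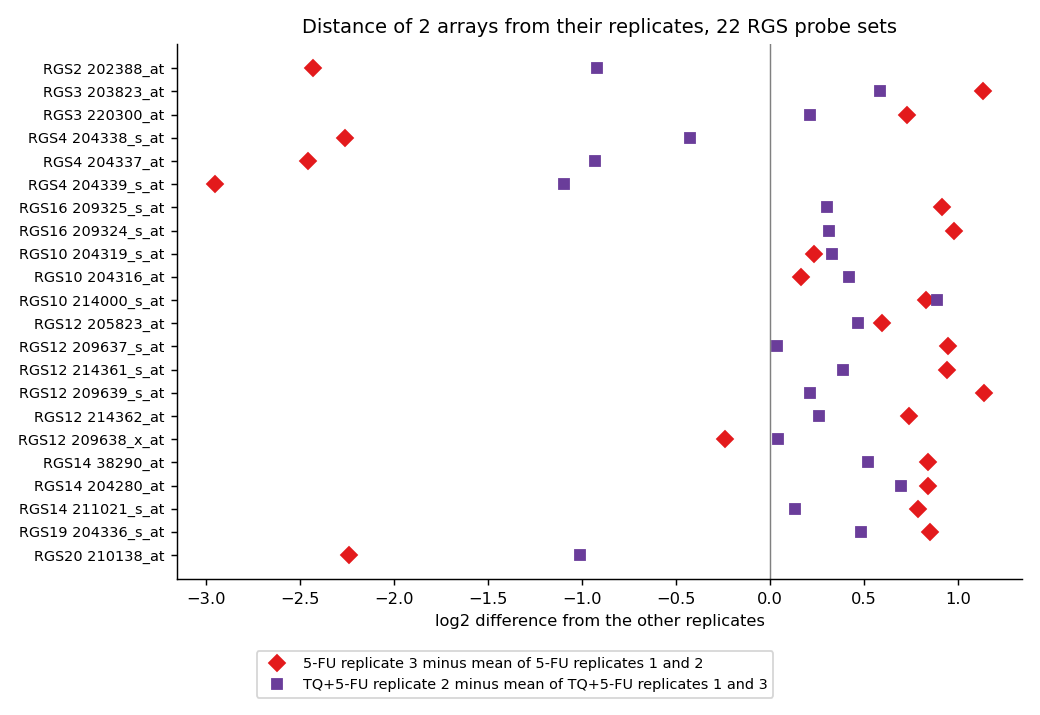
Log2 difference (x axis) of 5-FU replicate 3 from the mean of 5-FU replicates 1 and 2 (diamonds) and of TQ+5-FU replicate 2 from the mean of TQ+5-FU replicates 1 and 3 (squares), for the 22 RGS probe sets (y axis). RGS2, RGS4 and RGS20 lie between -2.24 and -2.95 for the 5-FU array, and all other probe sets except 209638_x_at of RGS12 lie above 0.

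Over the 10 arrays, calls among the 22 probe sets numbered 8 higher and 0 lower with TQ+5-FU, 7 and 1 with TQ, and 8 and 1 with 5-FU. These are shares of 36.4%, 36.4% and 40.9%, where 21.4%, 30.6% and 26.1% of all probe sets were called. Since the genes were chosen with these results known, the shares are a description only. Fitted on the TQ and control arrays alone, limma also called 7 higher and 1 lower, against 29.5% of all probe sets (14% higher and 15.5% lower). Groups that do not overlap numbered 9 of 22 with TQ+5-FU, 8 with TQ and 7 with 5-FU, where 24.1%, 44.4% and 24.5% of all probe sets did not overlap. The median log2 difference of the 22 probe sets was 0.21 with TQ+5-FU, -0.0019 with TQ and 0.24 with 5-FU, beside medians of -0.0031, -0.09 and 0.07 over all probe sets tested.

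What each drug added to the other was read from the arrays with both. Against 5-FU alone, TQ+5-FU gave no call among the 22 probe sets over 12 arrays in limma (0.738% of all probe sets were called; 3 higher and 1 lower at an unadjusted p under 0.05, and 0 by the methods' Tukey's HSD) and 4 higher over 10 arrays (6.13% of all in either direction, 3.25% higher). The 4 were both probe sets of RGS16, at 0.87 and 1.14, RGS2, at 0.98, and 204338_s_at of RGS4, at 0.46 on the log2 scale. Against TQ alone, TQ+5-FU gave no call over 12 arrays in limma (0.968% of all; 5 higher and 0 lower at an unadjusted p under 0.05, and 1, RGS3, by the methods' Tukey's HSD) and 4 higher over 10 arrays (11.7% of all in either direction, 7.03% higher). These were RGS3 at 0.88, RGS14 (38290_at) at 0.48, RGS19 at 0.40 and 209324_s_at of RGS16 at 0.61. RGS2 was not higher with both drugs than with TQ, at -0.46 over 12 arrays (95% confidence interval -1.70 to 0.79) and -0.15 over 10.

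The interaction, TQ+5-FU minus TQ minus 5-FU plus control, asks whether TQ acts differently in cells that also receive 5-FU. Over 12 arrays limma called none of the 22 probe sets (0.126% of all; 0 at an unadjusted p under 0.05). With array weights 8 were called, beside 54.1% of all probe sets. Over 10 arrays 3 were called (9.89% of all). RGS20 had -1.65 (adjusted p = 0.0078) and RGS2 had -1.19 (adjusted p = 0.014), so that the effect of TQ was smaller in the presence of 5-FU: 0.52 and 0.98 with 5-FU for RGS20 and RGS2, against 2.17 and 2.18 without it. The value of RGS20 includes its low control signal. The dimmer probe set of RGS16, 209324_s_at, had 0.69 (adjusted p = 0.028), whereas the brighter had 0.16 and was not called. RGS3 and RGS14 had -0.34 and -0.35 over 10 arrays and were not called.

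**Figure D4:**
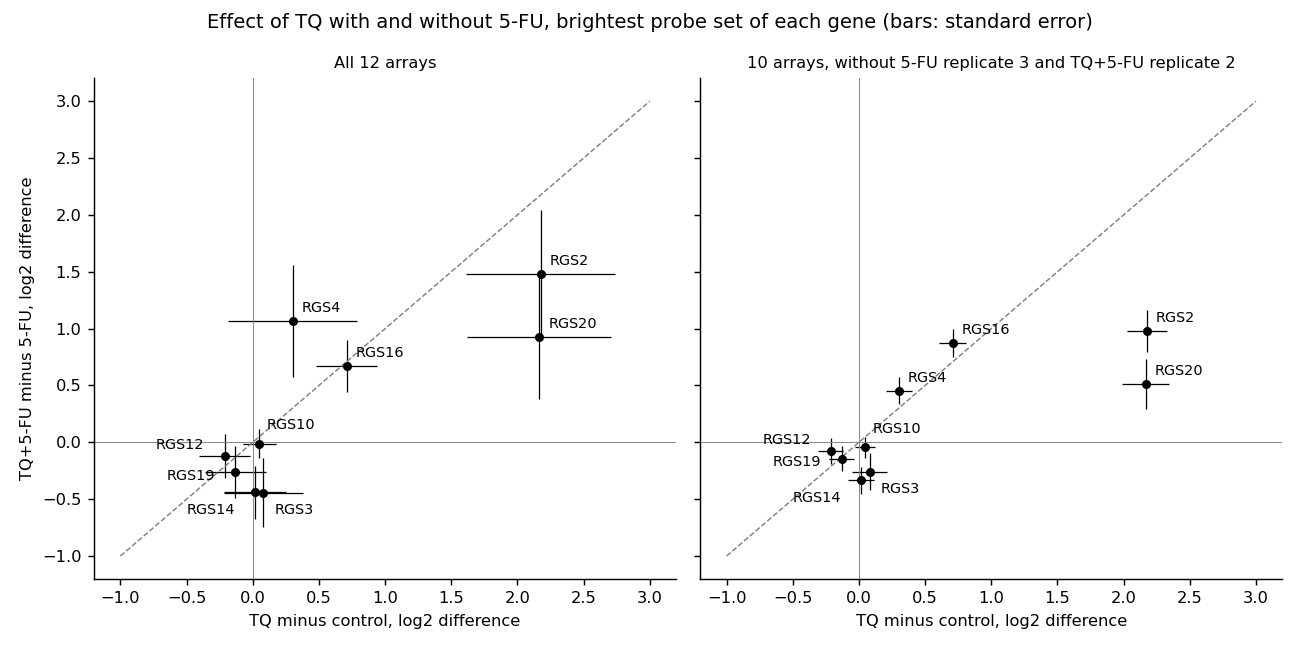
Effect of TQ in cells given 5-FU (TQ+5-FU minus 5-FU, y axis) against its effect without 5-FU (TQ minus control, x axis), log2 difference of the brightest probe set of each RGS gene, over 12 arrays (left) and 10 arrays (right); bars are standard errors and the dashed line marks equal effects. Over 10 arrays RGS2 (2.18 and 0.98) and RGS20 (2.17 and 0.52) lie below the line.

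The other 8 RGS genes on the array, RGS1, RGS5, RGS6, RGS7, RGS9, RGS11, RGS13 and RGS17, were read by 16 probe sets. Over 12 arrays none of the 8, each at its brightest probe set, was called in any of the 6 comparisons by limma. Between 0.126% (interaction) and 6.68% (5-FU against control) of all probe sets were called there, so 0 of 8 is near these shares. At an unadjusted p under 0.05, 1 was higher with 5-FU and 1 lower with TQ+5-FU against 5-FU. RGS5, an R4 member known from vascular mural cells, was called over 10 arrays, with 0.67 with 5-FU (adjusted p = 7.6e-04 in limma) and an interaction of -0.69 (adjusted p = 0.019). Of all probe sets, 26.1% and 9.89% were called in these comparisons over 10 arrays. RGS1 and RGS13, known from lymphocytes, did not exceed a log2 signal of 3.13 in any array.

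Around the RGS genes, 66 of 81 listed genes of G protein signaling were on the array: G protein subunits, effectors, other G alpha regulators, an arrestin and proteins with an RGS-homology domain. Over 12 arrays, 2 of the 66 rose and 4 fell with 5-FU, beside 6.68% of all probe sets called in either direction. The 66 were each read at the brightest probe set, while that share includes dim ones. Without the 30% dimmest probe sets it was 10%. None was called with TQ+5-FU or TQ (2.58% and 0.252% of all). There limma at an unadjusted p under 0.05 counted 3 higher and 6 lower, and 2 higher and 6 lower. Of 15 G alpha subunits, GNA15, a Gq-class subunit, rose with 5-FU by 1.41 (standard error 0.30, adjusted p = 0.020 in limma) and GNAL, a Gs-class subunit, fell by 0.85 (adjusted p = 0.0055). Of 22 effectors on the array, 1 rose and 3 fell with 5-FU. The adenylyl cyclase genes ADCY7 and ADCY3 fell by 1.33 and 1.11, PRKAR2A, a regulatory subunit of protein kinase A, fell by 0.82, and PRKACA, a catalytic subunit, rose by 0.77. All 6 kept their direction over 10 arrays and were called there, where 26.1% of all probe sets were called with 5-FU. None of the 13 G beta and gamma subunits or of the 11 RGS-homology proteins was called with 5-FU in limma over 12 arrays, and at an unadjusted p under 0.05 the subunits held 2 higher and 1 lower and the RGS-homology proteins 0. Over 10 arrays, 11 of the 66 were called higher and 14 lower with TQ, beside 30.6% of all probe sets. Of these, PDE4B, a phosphodiesterase that degrades cAMP, had the largest log2 difference, -1.87 (adjusted p = 1.3e-05 in limma), and CCDC88A, a regulator of Gi, had the largest positive one, 1.04 (adjusted p = 6.0e-04). Both were named after their values were seen, and neither was called over 12 arrays. The median of the 66 genes was 0.10 with 5-FU, beside 0.09 over all genes.

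Genes whose signals ran most like those of RGS3, RGS14 and RGS16, the members with the smallest p across the 4 groups, were taken by Pearson's r over the 12 arrays. For RGS3 these were FAM89B (r = 0.995), IFI27 (0.994) and FOSL2 (0.994), for RGS14 NR4A1 (0.994), RELB (0.992) and NOCT (0.991), and for RGS16 HES1 (0.975), FOSB (0.971) and PLA2G4C (0.965). Over 10 arrays, r of these genes was between 0.961 and 0.990, but none of them was then among the nearest 3, which were AAMDC, MPC2 and CMC2 for RGS3, IL11, GPX3 and GSN for RGS14, and H2BC12L, ZFP36L2 and RFPL2 for RGS16. Among the members, RGS3 and RGS14 had r = 0.984, RGS2 and RGS20 0.881, and RGS4 and RGS19 -0.904 over 12 arrays. The 12 points share 4 treatments and the shift of 5-FU replicate 3, so that these values describe likeness on these arrays only. The F test across the 4 groups passed for these 3 members at their brightest probe set alone, 3 of 22 probe sets beside 7.54% of all, and for 12 over 10 arrays, beside 42% of all.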

How the data were processed

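The authors normalized the arrays by RMA (background correction, quantile normalization and summarization per probe set) and deposited log2 signals, 1 column per array, which were used as deposited. The paper's methods name GeneSpring for this step and the submitters' processing notes Affymetrix Expression Console, and which of them made these values is not given in the sources used here. The table holds 22277 probe sets, of which the 62 that serve as array controls were not tested. The platform annotation names 1 gene for 19064 probe sets, several for 1043 and none for 2108, and symbols were updated through RefSeq, in which all 9 members matched. A gene with several probe sets is read from the one with the highest mean signal, and all probe sets of a member are reported. A log2 RMA signal has no detection call, and the number of arrays limits its precision.

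Each comparison was a contrast of group means fitted jointly to the 12 arrays by limma 3.58.1 (R 4.3.3), with empirical Bayes moderation, and two-sided p-values adjusted by Benjamini-Hochberg over 22215 probe sets. An exact permutation test of 3 arrays against 3 cannot go below 0.1 and was not run. The members and gene lists were chosen with earlier results of these data known. All members are named, with every probe set fitted and counted, as are the other RGS genes. From each pathway list up to 4 genes past the threshold per comparison are named, and the 3 genes most like each of the 3 members with the smallest F-test p. Alternatives were the methods' own tests (ANOVA followed by Tukey's HSD, and a t-test), fits on the groups compared, a replicate block, quantile normalization, median centring, a filter on the 30% dimmest probe sets, array weights, another variance prior and arrays left out. The procedure was tested on simulated data. Promoter sequences are RefSeq's, for 8 of the 9 members; no sequence of RGS20 is shown. Figures were drawn with matplotlib 3.10.9.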

Additional observations from a re-analysis of the deposited data

Results flagged for a closer look

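With 5-FU replicate 3 and TQ+5-FU replicate 2 left out, the effect of TQ differed between cells with and without 5-FU for 3 probe sets by limma's interaction term: -1.65 for RGS20 (adjusted p = 0.00777), -1.19 for RGS2 (adjusted p = 0.0139) and 0.69 for probe set 209324_s_at of RGS16 (adjusted p = 0.0282). Over 12 arrays the values were -1.24, -0.69 and 0.46, and none passed. Over 10 arrays, 9.89% of all probe sets passed. With array weights all 3 passed, where 54.1% of all probe sets did, and without 5-FU replicate 3 alone RGS20 passed, where 2.8% did.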

How the results depend on the processing

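Calls among the 22 RGS probe sets depended on single arrays. Leaving out 1 array at a time gave 0 to 3 calls with TQ, 0 to 5 with 5-FU and 0 to 7 with TQ+5-FU against control, 0 to 2 for TQ+5-FU against 5-FU, 0 to 5 for TQ+5-FU against TQ, 0 to 1 for the interaction and 0 to 9 across the 4 groups, the highest each time without 5-FU replicate 3, where 8.05%, 14.4%, 10.5%, 2.82%, 12.1%, 2.8% and 21.2% of all probe sets were called in the same order of comparisons. Without control replicate 1, no probe set passed in these comparisons. Removing both arrays that stand apart (5-FU replicate 3 with TQ+5-FU replicate 2) gave 8 with TQ, 9 with 5-FU, 8 with both drugs, 4 and 4 against 5-FU and TQ, 3 for the interaction and 12 across the groups, and array weights gave 11, 12, 14, 11, 16, 8 and 18, where 50.4% to 86.1% of all probe sets were called. The methods' ANOVA with Tukey's HSD left 1 with 5-FU, 1 with TQ+5-FU against control, 1 with TQ+5-FU against TQ, and 1 across the groups, all of them RGS3. The shares of all probe sets in these comparisons were 6.26%, 4.62%, 3.99% and 7.51%. The methods' t-test, adjusted over all probe sets, gave 3 with TQ (RGS2, RGS16 and RGS20), 0 with 5-FU and 0 with TQ+5-FU. These stood beside 16.2%, 1.19% and 2.46% of all probe sets. Without adjustment, and without the methods' fold change cut, 8, 3 and 7 had a p under 0.05 in this t-test. Neither the ANOVA with Tukey's HSD nor the t-test was run for the interaction. Limma on the groups compared only gave 8 with TQ, 0 with 5-FU and 5 with TQ+5-FU, beside 29.5%, 0.729% and 3.88% of all. Quantile normalization left 0 with TQ+5-FU and 1 across the groups (2.53% and 6.79% of all), and median centring 1 with TQ+5-FU (1.68%). The cause of these changes was not tested. With the replicate number as a block, 1 passed with TQ+5-FU (3 without the block) and 1 across the groups, beside 1.46% and 4.44% of all. The calls of the other comparisons did not change in number. The labels do not say whether arrays of the same number belong together. Of 18 same-numbered pairs, 6 deviated together at a correlation over 0.1. This cannot settle the pairing, because deviations were taken from means of 3 arrays that include the 2 standing apart. Those 2, 5-FU replicate 3 and TQ+5-FU replicate 2, bear different numbers and deviated together at a correlation of 0.88. Of the members' log2 differences at their brightest probe set, none that was called changed sign under any alternative tried. By more than 1 SD between replicates 35 values moved, and 1204 stayed within it. Many of the 1204 could not move. Another test, variance prior, block or filter, or leaving out an array of another group, keeps the means compared. The SD also includes the 2 arrays that stand apart, so the tally is no measure of robustness.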
